A study of Homo sapiens with 40 samples.

Results

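The genes described here encode the exon junction complex: MAGOH, its paralog MAGOHB, RBM8A, EIF4A3 and CASC3. They were chosen by symbol, and MAGOHB was listed because its count was known to be lower with doxycycline (Dox) in 1 of the cell lines, so that contrast is given below as values with no test. All 5 were found among the 19962 genes of the count table, and all 5 were among the 11428 genes with enough counts to test. The libraries come from RKO, an established human colorectal carcinoma line, with a Dox-inducible Cas9 and a GFP marker in every group. Each line also carried a lentiviral vector with a BFP marker and a pair of single guide RNAs (sgRNAs), against IGF2BP2, against IGF2BP3, or against the AAVS1 locus as the control. IGF2BP2 and IGF2BP3 are RNA-binding proteins known for effects on mRNA stability. The 10 groups had 4 libraries each: sgAAVS1 cells with DMSO or with Dox at 250 ng/mL for 72 h, the same pair in sgIGF2BP2 cells, the same pair in sgIGF2BP3 cells, and siRNA groups without Dox. The siRNAs were transfected at 75 nM for 48 h, as a nontargeting siRNA (siControl) or siIGF2BP2 in sgIGF2BP2 cells, and as siControl or siIGF2BP3 in sgIGF2BP3 cells. All cultures received 4-thiouridine (s4U), a uridine analog that labels new RNA, at 250 µM for 2 h. The sgRNA lines were sorted on BFP and are described as lines, not as clones, and the guides were expressed from U6 promoters. The labels name no separate culture for the quadruplicates other than the well, so p-values measure the spread between these samples, which may be technical. In bulk libraries, fewer cells with a change and less RNA per cell cannot be told apart.

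The exon junction complex is a protein assembly that the spliceosome leaves on an mRNA just upstream of the junction between joined exons. EIF4A3, a DEAD-box RNA helicase, clamps the RNA. The heterodimer of a Mago protein (MAGOH or MAGOHB) with RBM8A, also called Y14, locks that clamp, and CASC3, also called MLN51 or Barentsz, binds EIF4A3 as a further core subunit. The complex is known for roles in mRNA export and splicing, and for marking transcripts with early stop codons for nonsense-mediated decay. MAGOH and MAGOHB can each fill the Mago position.

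MAGOH (ENSG00000162385) lies on chromosome 1 at 53226892 to 53238610 on the reverse strand (GRCh38, GENCODE 29 annotation). MAGOHB (ENSG00000111196) lies on chromosome 12 at 10604190 to 10613623, also on the reverse strand. Their coding sequences, 441 and 447 bases long, could be aligned over 441 bases, of which 60 differed (identity 86.4%). The encoded proteins of 146 and 148 residues differed at 2 aligned residues, beside the residues that MAGOHB has in addition at its start. The sequencing reads were 100 bases long, so the 100 coding bases in which the genes are most alike show how far a read could be shared. They are printed with the 8 differing bases in capitals, 5′ to 3′ along the transcripts.
MAGOH: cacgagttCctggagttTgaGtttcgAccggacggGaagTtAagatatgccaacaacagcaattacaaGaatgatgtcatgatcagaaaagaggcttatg
MAGOHB: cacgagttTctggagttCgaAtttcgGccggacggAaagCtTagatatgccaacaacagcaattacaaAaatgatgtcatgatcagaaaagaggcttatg
The MAGOH stretch covers coding bases 55 to 154 and falls in exons 1 to 3 of 5, between 53233646 and 53238394 of chromosome 1. The MAGOHB stretch covers coding bases 61 to 160, in exons 1 to 3 of 5, between 10609935 and 10613472 of chromosome 12. Every other 100-base stretch of the coding alignment had more differences or as many, from 8 to 18, and the longest identical run was 38 bases. Outside the coding sequence the transcripts had 315 and 2176 bases. Coding bases were 58.3% of the MAGOH transcript and 17% of the MAGOHB transcript. Of the 657 and 2524 stretches of 100 bases in these transcripts, 0 were found unchanged in the GENCODE 29 transcripts of any other gene, pseudogenes included. How reads with mismatches or several matches were counted is not given in the sources used here, so the summed counts of both genes are given below beside the single ones.

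Of the other members, RBM8A shares sequence with other annotated genes. EIF4A3 (ENSG00000141543, chromosome 17 at 80135214 to 80147183, reverse strand) and CASC3 (ENSG00000108349, chromosome 17 at 40140318 to 40172183, forward strand) had 0 of 1635 and 0 of 4017 such stretches in another gene. RBM8A (ENSG00000265241, chromosome 1 at 145917714 to 145927678, reverse strand) shared 678 of 4862 stretches (13.9%) with other annotated genes. Most of these, 545, were shared with GNRHR2, which overlaps it on the opposite strand. RBM8A also shares 257 exon bases with AC243547.3 on the opposite strand. Stretches were also shared with GNRHR2P1 (349), RBM8B (38) and C14orf39 (28), which do not overlap RBM8A in the annotation. Whether reads were counted by strand, and how reads with several matches were counted, is not given in the sources used here. The RBM8A counts are uncertain to that extent.

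Library totals ran from 10018181 to 24822807 counts, with a median of 13468792. Libraries of a group were compared by the chi-square per gene of their counts. sgIGF2BP2 Dox replicate 2 stood apart with a median of 12.9 against the others of its group, and siIGF2BP2 replicate 3 had 5.60, while the remaining libraries had at most 3.63. Member values without these libraries are given where they matter. Each targeted gene was lower without overlap of the groups: 39.5% of IGF2BP2 was left with Dox and 27.9% with siIGF2BP2, and 31.1% of IGF2BP3 was left with Dox and 14.6% with siIGF2BP3. Of the epithelial markers, KRT8, KRT18, EPCAM and CDX2 were present in all libraries (EPCAM at 12.3 to 16 counts-per-million, CPM), while KRT19, CDH1 and VIL1 had at most 4 counts in any library. The leukocyte marker PTPRC reached at most 1 count, PECAM1 (endothelium) 3 and COL1A1 (fibroblasts) 11.

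Per kilobase of annotated exon, EIF4A3 (median 37.0 CPM per kb over 40 libraries) and MAGOH (35.1) stood highest, followed by RBM8A (30.3) and CASC3 (16.6). MAGOHB stood lowest at 3.40 CPM per kb. The exon length merges all annotated transcripts of a gene, so the gaps between genes depend on that choice. It was 4967 bases for EIF4A3, 1463 for MAGOH, 5585 for RBM8A, 6380 for CASC3 and 4856 for MAGOHB. The single transcripts examined above had 1734, 756, 4961, 4116 and 2623 bases in the same order. The levels of each gene varied little among the groups. The highest group mean was 127% of the lowest for MAGOH, 130% for MAGOHB, 120% for RBM8A, 118% for EIF4A3 and 110% for CASC3. When the 10 groups were put in order of their means, every neighbouring pair overlapped for 4 of the 5 genes. For EIF4A3, 8 of 9 neighbouring pairs overlapped, and the exception was sgIGF2BP2 Dox above sgIGF2BP2 siControl. Neighbours in such an order are the groups with the closest means, and the same count was not made over all genes. The overlap of neighbours is therefore no trait of these genes. Groups further apart in the order did not always overlap, as given below. MAGOHB rested on the fewest counts, 155 to 499 per library. Counting error alone gives a coefficient of variation of 6.77% at its median count, and its mean coefficient of variation within groups was 8.23%.

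**Figure D1:**
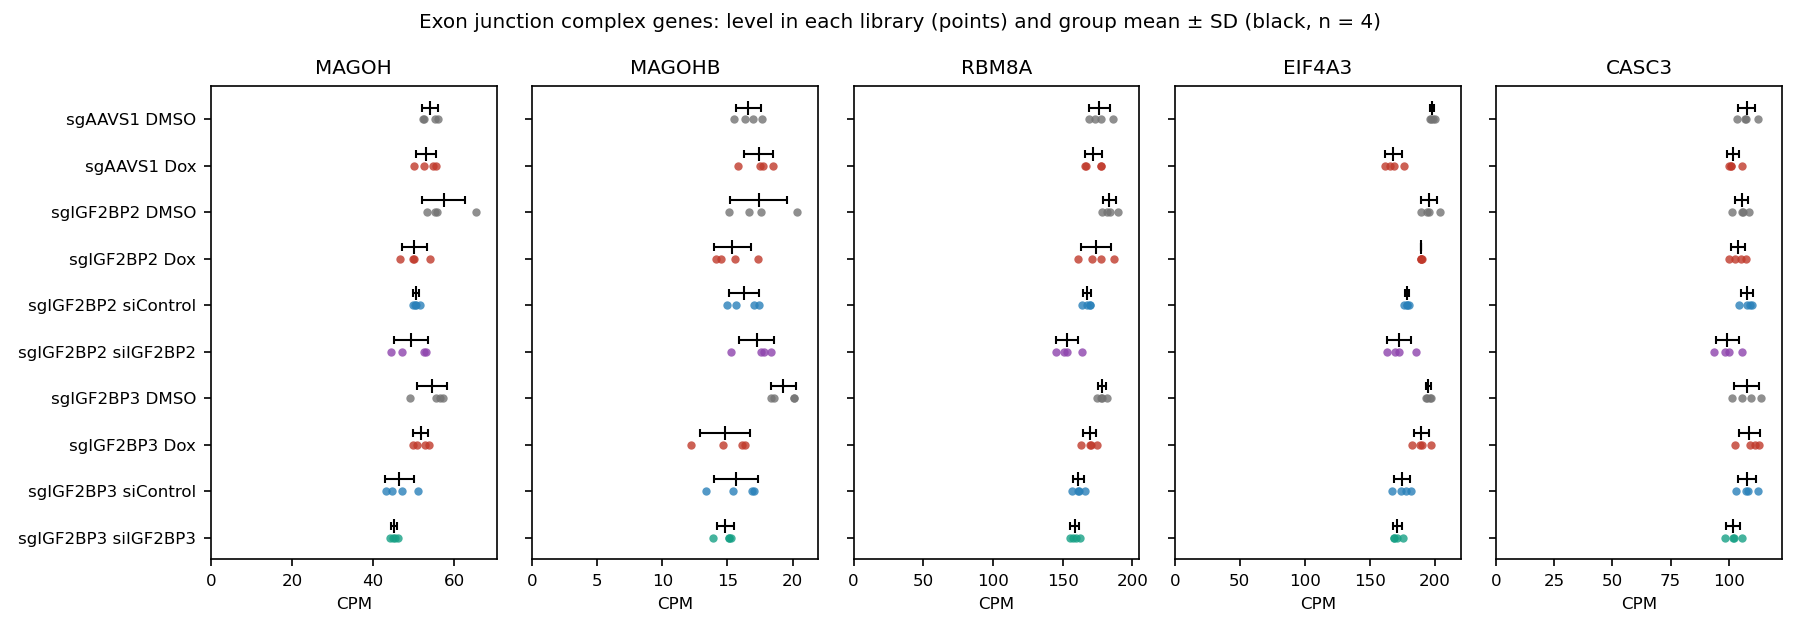
Level of each exon junction complex gene in CPM (horizontal axes, each from 0) in the 10 groups, with 1 point per library and the group mean ± SD (n = 4) in black. MAGOHB runs from 12.2 to 20.3 CPM with its highest group mean in sgIGF2BP3 DMSO and its lowest in sgIGF2BP3 Dox. EIF4A3 in sgAAVS1 Dox lies below sgAAVS1 DMSO without overlap.

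MAGOHB was lower with Dox in sgIGF2BP3 cells, which is the observation that put it on the list. The 4 DMSO libraries of that line held 18.5, 20.1, 18.4 and 20.1 CPM and the 4 Dox libraries 16.4, 14.6, 16.1 and 12.2 CPM. The groups did not overlap, and the fourth Dox library was the lowest of all 40. The log2 fold change was −0.39 (SE 0.087), or 76.4% of the DMSO level, and −0.30 without that library. In this contrast 2.64% of all genes tested were called at an adjusted p under 0.05, and groups did not overlap for 10.4% of genes. These values chose the gene and carry no test. The DMSO group of sgIGF2BP3 cells had the highest mean of all 10 groups (19.3 ± 0.949 CPM, SD, n = 4). It also lay above all 4 sgAAVS1 DMSO libraries (17, 16.3, 15.5 and 17.7 CPM). The share of all genes that separate these 2 DMSO groups is not given here. The sgIGF2BP3 DMSO values also entered the choice of MAGOHB, so this separation is a description only. The sgIGF2BP3 Dox group had the lowest mean of all 10 groups (14.8 ± 1.92 CPM), close to that of siIGF2BP3 (14.8 ± 0.649 CPM). It overlapped the range of those sgAAVS1 DMSO libraries, but its libraries at 14.6 and 12.2 CPM lay below all of them.

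The siRNA against IGF2BP3 gave libraries that the choice of MAGOHB did not use. MAGOHB stood at 17, 13.4, 16.9 and 15.4 CPM with siControl and at 15.1, 15.3, 13.9 and 15.1 CPM with siIGF2BP3. The siIGF2BP3 values lay within the span of the siControl values. The log2 fold change was −0.06 (SE 0.090, 95% interval −0.24 to 0.13, adjusted p = 0.849 in edgeR). The difference between the Dox and the siRNA effect was not tested, and the agents, times and control cultures differ.

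With Dox in the control line MAGOHB did not pass the test. The sgAAVS1 Dox libraries held 15.8, 17.7, 17.5 and 18.5 CPM, overlapping the DMSO values above, with a log2 fold change of 0.06 (SE 0.087, 95% interval −0.12 to 0.24, adjusted p = 0.707 in edgeR). In sgIGF2BP2 cells MAGOHB stood at 17.5, 15.1, 20.3 and 16.7 CPM with DMSO and at 14.5, 17.4, 15.5 and 14.1 CPM with Dox. These groups overlapped, and the log2 fold change of −0.20 (SE 0.086, adjusted p = 0.103 in edgeR) missed the threshold. The call depended on single libraries: adjusted p was 0.0332 without Dox replicate 2, 0.0359 without DMSO replicate 2 and 0.586 without DMSO replicate 3. The Dox effect in sgIGF2BP2 cells differed from that in sgAAVS1 cells by −0.25 (SE 0.12, adjusted p = 0.213 in edgeR). For sgIGF2BP3 cells the same difference was −0.45 (SE 0.12) against sgAAVS1 and −0.19 (SE 0.12) against sgIGF2BP2, as values only. Each of these differences uses the DMSO and Dox libraries of the lines named. With siIGF2BP2, MAGOHB had a log2 fold change of 0.07 (SE 0.086, adjusted p = 0.562 in edgeR).

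MAGOH, the more abundant Mago gene, stood at 43.2 to 65.3 CPM over the 40 libraries. In sgIGF2BP2 cells it fell with Dox, from 65.3, 55.2, 55.9 and 53.4 CPM to 46.7, 50.2, 49.9 and 54.1 CPM. The groups overlapped by 1 library on each side, and the first DMSO library was the highest of all 40. The log2 fold change was −0.19 (SE 0.056, adjusted p = 0.00874 in edgeR). Without that DMSO library it was −0.13 and the call was lost (adjusted p = 0.101), and it was also lost without Dox replicate 1 (adjusted p = 0.0531). Of the members, 1 of 5 was called in this contrast, where 20.4% of all genes were called and 10.4% called lower. Without Dox replicate 2, the library that stood apart, 3 of 5 were called (MAGOH, MAGOHB and RBM8A), with −0.19 for MAGOH. The shares of 20.4% and 10.4% belong to the fit over all libraries. The share of all genes called without that library is not given here, so the 3 of 5 has no background beside it. In sgAAVS1 cells the log2 fold change of MAGOH was −0.03 (SE 0.056, adjusted p = 0.801 in edgeR), and the effects in these lines differed by −0.16 (SE 0.079, adjusted p = 0.210 in edgeR). In sgIGF2BP3 cells MAGOH stood at 54.6 ± 3.75 CPM with DMSO and at 51.8 ± 1.81 CPM with Dox (log2 fold change −0.08, value only). With the siRNAs MAGOH had log2 fold changes of −0.03 (siIGF2BP2, adjusted p = 0.704) and −0.04 (siIGF2BP3, adjusted p = 0.853).

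MAGOHB made up 22.2% to 26.2% of the counts of the Mago pair, as group means. The lowest mean share was in sgIGF2BP3 Dox and the highest in sgIGF2BP3 DMSO. Per library the share was 25.1%, 26.0%, 24.6% and 29.1% with DMSO in that line and 23.7%, 22.7%, 23.0% and 19.3% with Dox, with no overlap. These shares, and the order of their means, use the MAGOHB counts that chose the gene. They are therefore not a separate result and carry no test. The exact binomial 95% intervals, which cover counting error only, overlapped between the nearest libraries: 22.0% to 27.3% for the DMSO library at 24.6%, and 20.7% to 26.8% for the Dox library at 23.7%. The summed level of both genes was 73.8 ± 3.43 CPM with DMSO and 66.6 ± 3.40 CPM with Dox, a log2 fold change of −0.15 as a value. In sgIGF2BP2 cells the sum fell with Dox by 0.19 on the log2 scale (SE 0.050, adjusted p = 0.00319 in edgeR), and in sgAAVS1 cells it had −0.0051 (adjusted p = 0.958). With siIGF2BP2 and siIGF2BP3 the sum had log2 fold changes of −0.0049 and −0.04 (edgeR adjusted p = 0.949 and 0.781). Across the 10 group means of log2 CPM, MAGOH and MAGOHB had a Pearson r of 0.63, and within groups, over the 40 libraries, the r of their deviations was 0.14. These correlations describe libraries that share cell lines and controls.

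**Figure D2:**
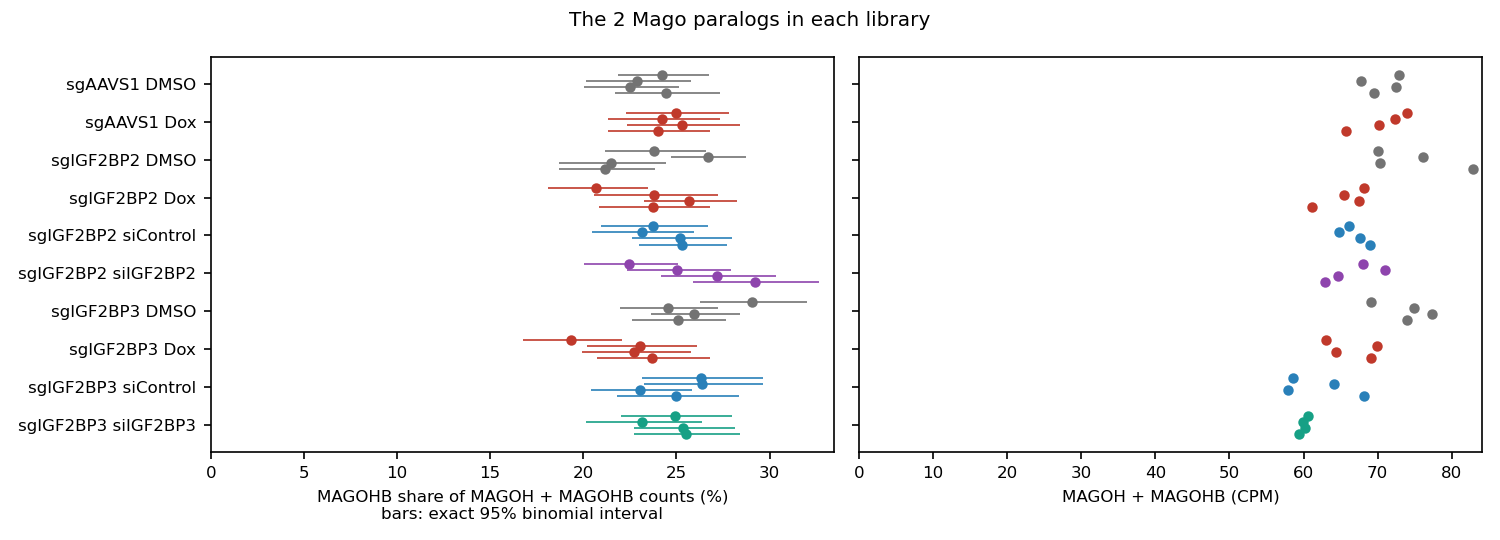
Left, the share of MAGOHB among MAGOH and MAGOHB counts (percent) in each library, with exact binomial 95% intervals as bars; right, the summed level in CPM; both axes start at 0 and rows are the 10 groups. Shares of the sgIGF2BP3 Dox libraries (19.3% to 23.7%) lie below those of the sgIGF2BP3 DMSO libraries (24.6% to 29.1%), and both use the MAGOHB counts that chose the gene.

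RBM8A, the Mago partner, fell with siIGF2BP2. It stood at 167, 169, 170 and 164 CPM with siControl and at 145, 153, 164 and 151 CPM with siIGF2BP2. The highest siIGF2BP2 library reached the lowest siControl library. The log2 fold change was −0.13 (SE 0.037, adjusted p = 0.0046 in edgeR). CASC3 also fell with siIGF2BP2, from 108, 110, 109 and 104 CPM to 99.9, 106, 93.5 and 98.5 CPM, with 1 library on each side in the overlap. Its log2 fold change was −0.12 (SE 0.040, adjusted p = 0.0151 in edgeR), and the call was lost without siIGF2BP2 replicate 3 (−0.09, adjusted p = 0.0826). These were 2 of 5 members, in a contrast in which 36.8% of all genes were called (18.4% in each direction), so the share is close to the background. The median log2 fold change of the 5 members was −0.05, against 0.01 for all genes tested.

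With siIGF2BP3, 0 of 5 members were called by edgeR, by DESeq2, or at an unadjusted p under 0.05, in a contrast with 2.34% of all genes called. RBM8A stood at 161 ± 3.94 CPM with siControl and at 159 ± 3.02 CPM with siIGF2BP3 (log2 fold change −0.02, SE 0.038, adjusted p = 0.850 in edgeR). CASC3 had the lowest adjusted p of the 5 (0.379, log2 fold change −0.08, SE 0.040), with a 95% interval of −0.16 to 0.00. When the siIGF2BP2 effect was subtracted from the siIGF2BP3 effect, again 0 of 5 passed by edgeR, by DESeq2 or at an unadjusted p under 0.05, against 18.7% of all genes. The RBM8A difference was 0.10 (SE 0.053, adjusted p = 0.173 in edgeR).

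With Dox, RBM8A and CASC3 did not pass the test in either line in which they were tested. RBM8A had log2 fold changes of −0.04 in sgAAVS1 cells (adjusted p = 0.580) and −0.07 in sgIGF2BP2 cells (adjusted p = 0.155; 0.0312 without Dox replicate 2). CASC3 had −0.08 (adjusted p = 0.174) and −0.02 (adjusted p = 0.747). In sgIGF2BP3 cells RBM8A stood at 178 ± 2.86 CPM with DMSO and at 169 ± 4.62 CPM with Dox, without overlap (log2 fold change −0.07). CASC3 stood at 108 ± 5.28 and 109 ± 4.52 CPM there. Groups did not overlap in that contrast for 10.4% of all genes.

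EIF4A3, the RNA clamp, fell with Dox in the control line. The sgAAVS1 DMSO libraries held 198, 196, 200 and 197 CPM and the Dox libraries 176, 161, 165 and 169 CPM, with a wide gap between the groups. The log2 fold change was −0.23 (SE 0.034, adjusted p = 4.16e-07 in edgeR), or 85% of the DMSO level. It was the only member called there (1 of 5, with 15.9% of all genes called, 8.68% called lower, and groups not overlapping for 17.5%). In sgIGF2BP2 cells EIF4A3 stood at 195 ± 5.99 CPM with DMSO and at 189 ± 0.304 CPM with Dox (log2 fold change −0.05, SE 0.034, adjusted p = 0.376 in edgeR). In sgIGF2BP3 cells it stood at 195 ± 1.83 and 189 ± 5.98 CPM (log2 fold change −0.04, value only). The Dox effect in sgIGF2BP2 cells was higher than in sgAAVS1 cells by 0.19 (SE 0.048, adjusted p = 0.00818 in edgeR), in a contrast with 6.97% of genes called. The same difference for sgIGF2BP3 cells was 0.19 (SE 0.048, value only), and both differences use the same sgAAVS1 libraries.

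Genes near EIF4A3 on chromosome 17 were lower in the same libraries. Of the 122 tested genes within 5 Mb, 113 (92.6%) had a negative log2 fold change with Dox in sgAAVS1 cells and 77 were called lower, with a median of −0.21. Of these neighbours, 54 had a lower value than EIF4A3 itself. The same 122 genes had medians of 0.02 in sgIGF2BP2 cells and 0.03 in sgIGF2BP3 cells. From SPOP, a gene of that chromosome at 49598884 with a log2 fold change of −1.68 in sgAAVS1 cells, to the chromosome end, 250 tested genes had a median of −0.17. EIF4A3 lies within that segment, and the part of the segment's shift in the EIF4A3 value was not tested. CASC3 lies on the other side of SPOP, and its 130 neighbours within 5 Mb had a median of −0.06. The 69 neighbours of MAGOHB had a median of 0.04 with Dox in sgIGF2BP3 cells, where 1 was called lower and 2 had a lower value than MAGOHB. The MAGOHB value in that contrast chose the gene. Its low place among the neighbours is therefore not a separate result and was not tested.

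**Figure D3:**
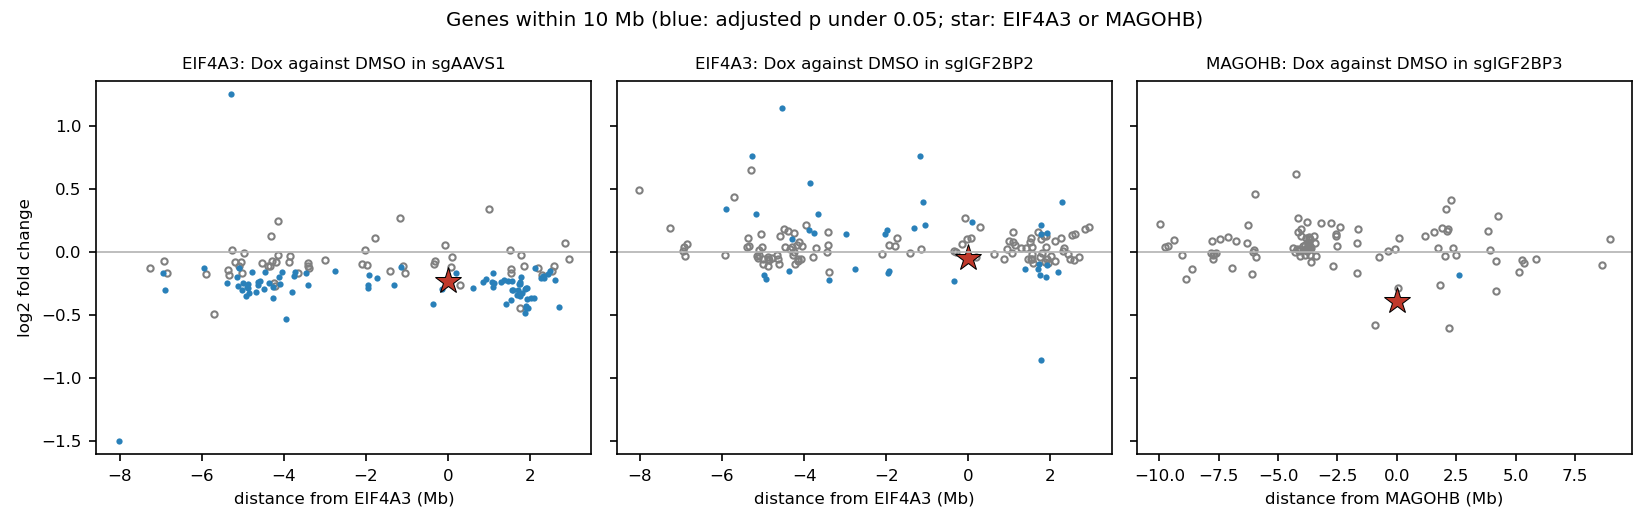
Log2 fold change (vertical axis) of tested genes by their distance in Mb (horizontal axis) from EIF4A3, with Dox in sgAAVS1 and in sgIGF2BP2 cells, and from MAGOHB, with Dox in sgIGF2BP3 cells; blue points have an adjusted p under 0.05 and the star is the gene itself. Around EIF4A3 most points lie below 0 in sgAAVS1 cells (median −0.21 within 5 Mb) and not in sgIGF2BP2 cells (0.02). MAGOHB lies below most of its neighbours, with the value that chose the gene.

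Cultures with siControl and no Dox had lower levels of 3 members than DMSO cultures of the same line. These groups differ in transfection, in DMSO and in time, which cannot be told apart, and their libraries also serve in the Dox and siRNA comparisons. In sgIGF2BP2 cells MAGOH (51.5, 50.6, 49.7 and 50.4 CPM with siControl, against the DMSO values above) had a log2 fold change of −0.18 (SE 0.054, adjusted p = 0.0133 in edgeR). RBM8A fell from 184 ± 4.87 to 168 ± 2.89 CPM (−0.13, SE 0.037, adjusted p = 0.00711 in edgeR). EIF4A3 fell from 195 ± 5.99 to 178 ± 1.58 CPM (−0.13, SE 0.034, adjusted p = 0.00292 in edgeR). These 3 of 5 calls, all without overlap, compare with 18.4% of all genes called, and 8.16% called lower. Groups did not overlap for 20.3% of genes. Without DMSO replicate 1 the MAGOH call was lost (−0.12, adjusted p = 0.147). MAGOHB (−0.12, adjusted p = 0.370) and CASC3 (0.03, adjusted p = 0.614) did not pass.

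In sgIGF2BP3 cells the same 3 genes fell, among 4 that were tested. MAGOH stood at 55.4, 57.3, 56.5 and 49.0 CPM with DMSO and at 51.1, 44.6, 47.2 and 43.2 CPM with siControl, with 1 library of each group in the overlap. Its log2 fold change was −0.24 (SE 0.057, adjusted p = 0.00123 in edgeR). RBM8A fell by 0.14 (SE 0.037, adjusted p = 0.00374 in edgeR), from 178 ± 2.86 to 161 ± 3.94 CPM, and EIF4A3 by 0.16 (SE 0.034, adjusted p = 0.000349 in edgeR), from 195 ± 1.83 to 175 ± 6.28 CPM. In this contrast 19.4% of all genes were called, 8.54% were called lower, and groups did not overlap for 21.9%. CASC3 stood at 108 ± 5.28 and 108 ± 3.86 CPM (log2 fold change −0.00041, adjusted p = 0.996). MAGOHB, whose DMSO libraries entered its choice, had a value of −0.32 (SE 0.086) without overlap. Across the 10 group means, MAGOH and RBM8A had a Pearson r of 0.85, RBM8A and EIF4A3 0.76, and MAGOH and EIF4A3 0.67. CASC3 had 0.61 with EIF4A3, 0.50 with RBM8A and 0.29 with MAGOH. MAGOHB had 0.63 with MAGOH, 0.39 with RBM8A, 0.22 with EIF4A3 and −0.06 with CASC3. The MAGOHB means include the groups that chose it, and no r over other gene pairs is given beside these values.

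**Figure D4:**
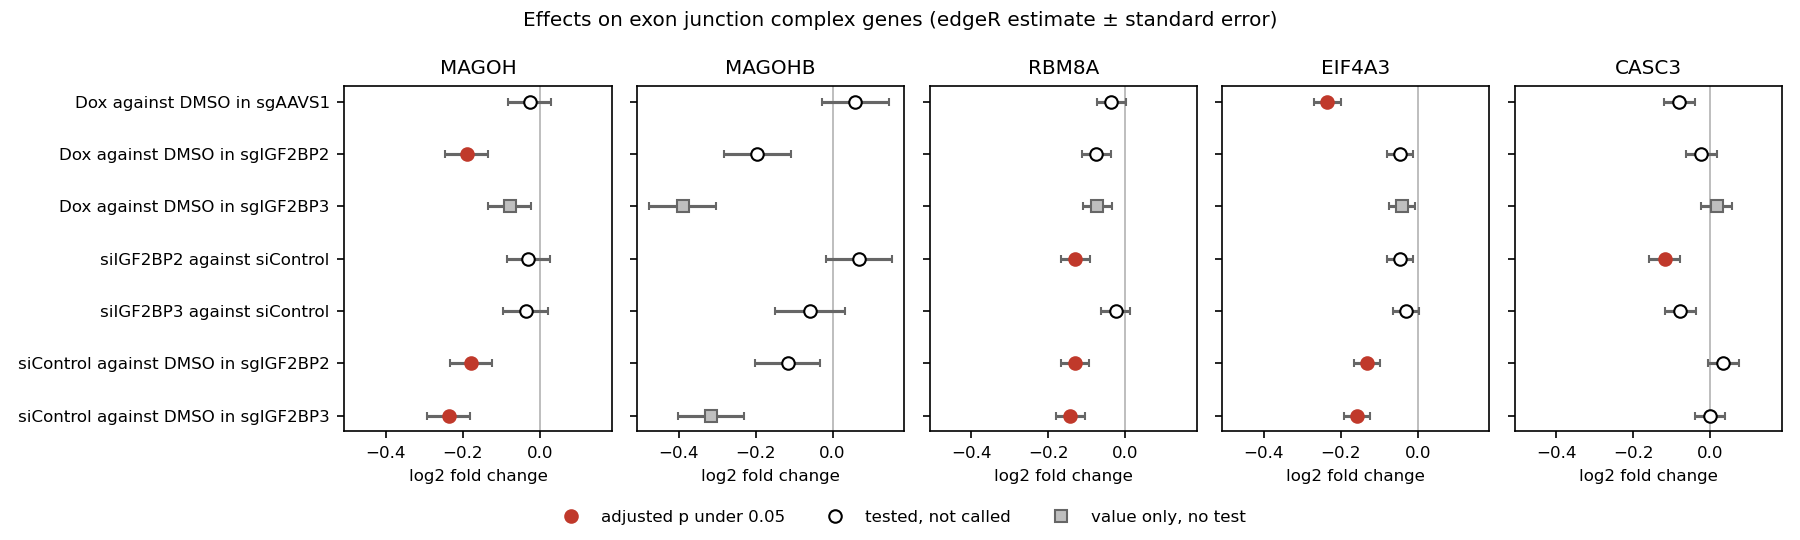
Log2 fold change ± standard error (horizontal axes) of each member in 7 comparisons (rows), with calls at an edgeR adjusted p under 0.05 and untested values marked by symbol. The siControl against DMSO rows lie below 0 for MAGOH, RBM8A and EIF4A3 in both lines, and the greatest single value is MAGOHB with Dox in sgIGF2BP3 cells (−0.39).

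The wider machinery was read from 20 genes that bind the complex or act with it in splicing, export and nonsense-mediated decay, all 20 of them tested. With Dox 5 fell and 0 rose in sgAAVS1 cells, and 5 fell and 0 rose in sgIGF2BP2 cells. Of all genes tested, 8.68% were called lower in sgAAVS1 cells (15.9% in either direction) and 10.4% in sgIGF2BP2 cells (20.4% in either direction). In sgAAVS1 cells, ALYREF, an mRNA export adaptor, fell from 218.9 ± 7.09 to 183.0 ± 2.28 CPM (log2 fold change −0.26, SE 0.042, adjusted p = 4.57e-06 in edgeR). ALYREF starts at 81887844 of chromosome 17, inside the segment described for EIF4A3. SRRM1, a splicing coactivator, fell by 0.18 (SE 0.044, adjusted p = 0.00317 in edgeR). In sgIGF2BP2 cells ALYREF fell by 0.18 (SE 0.042, adjusted p = 0.000696 in edgeR). Without Dox replicate 2, 3 of the 20 genes were called in that line, and the share of all genes in that fit is not given here. The median over the 20 genes was −0.06 in sgAAVS1 cells and −0.03 in sgIGF2BP2 cells, against 0.00 and 0.01 for all genes. In sgIGF2BP3 cells 0 of 20 were called by edgeR and by DESeq2, and 1 had an unadjusted p under 0.05. Of all genes tested, 2.64% were called by edgeR in that contrast, so 0 of 20 is near the background. Between lines, 1 of 20 differed in each comparison with sgAAVS1, where 6.97% (sgIGF2BP2) and 7.78% (sgIGF2BP3) of all genes differed. SMG8 differed by 0.26 for sgIGF2BP2 (adjusted p = 0.0458 in edgeR) and ALYREF by 0.18 for sgIGF2BP3 (adjusted p = 0.0401 in edgeR). Both lie on chromosome 17 beyond SPOP. The SMG8 call was lost in 12 of 16 fits that left out 1 library, with adjusted p up to 0.116, with only the groups of the comparison in the fit (0.0655) and with no filter on low counts (0.0710). The ALYREF call was lost in 9 of 16, up to 0.106.

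With siIGF2BP2, 5 of the 20 fell and 4 rose, where 36.8% of all genes were called. SAP18, a subunit of the ASAP and PSAP complexes that join the exon junction complex, had the greatest change. It fell from 143.9 ± 4.30 to 86.0 ± 6.62 CPM, by 0.74 on the log2 scale (SE 0.041, adjusted p = 1.39e-24 in edgeR). UPF3B, which links the complex to the decay machinery, rose by 0.36 (SE 0.077, adjusted p = 0.000132 in edgeR), from 18.1 ± 1.33 to 23.1 ± 2.27 CPM. PYM1, which takes the complex off mRNAs during translation, rose by 0.31 (SE 0.076, adjusted p = 0.000669 in edgeR). With siIGF2BP3, 0 of 20 were called by edgeR and by DESeq2, and 3 had an unadjusted p under 0.05. Of all genes tested, 2.34% were called by edgeR there, so 0 of 20 is near the background. The siRNA effects differed for 5 of 20 genes and for 18.7% of all genes, so the share in the list was near the background. SAP18 had a difference of 0.73 (siIGF2BP3 minus siIGF2BP2, SE 0.057, adjusted p = 6.11e-17 in edgeR). UPF3A had −0.34 (adjusted p = 0.00155 in edgeR) and SMG9 −0.25 (adjusted p = 0.00364 in edgeR).

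Between siControl and DMSO cultures, 4 of the 20 genes fell in sgIGF2BP2 cells and 2 fell in sgIGF2BP3 cells, and 0 rose in either. Of all genes, 8.16% and 8.54% were called lower in these contrasts, and 18.4% and 19.4% in either direction. In sgIGF2BP2 cells 1 was left without DMSO replicate 3 or siControl replicate 1, and 2 without siControl replicate 2. In sgIGF2BP3 cells 1 was left without siControl replicate 2 or 3. SAP18 fell in both, by 0.19 (SE 0.039, adjusted p = 0.000161 in edgeR) and by 0.21 (SE 0.039, adjusted p = 4.11e-05 in edgeR). ACIN1, the scaffold of the ASAP complex, fell by 0.13 in sgIGF2BP2 cells (SE 0.038, adjusted p = 0.0118 in edgeR), a call lost without siControl replicate 1 (adjusted p = 0.120) and without DMSO replicate 3 (0.0574). UPF2 fell by 0.15 in sgIGF2BP3 cells (SE 0.049, adjusted p = 0.0194 in edgeR), with adjusted p of 0.142, 0.0987 and 0.0705 without siControl replicate 3, DMSO replicate 4 and siControl replicate 2.

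**Figure D5:**
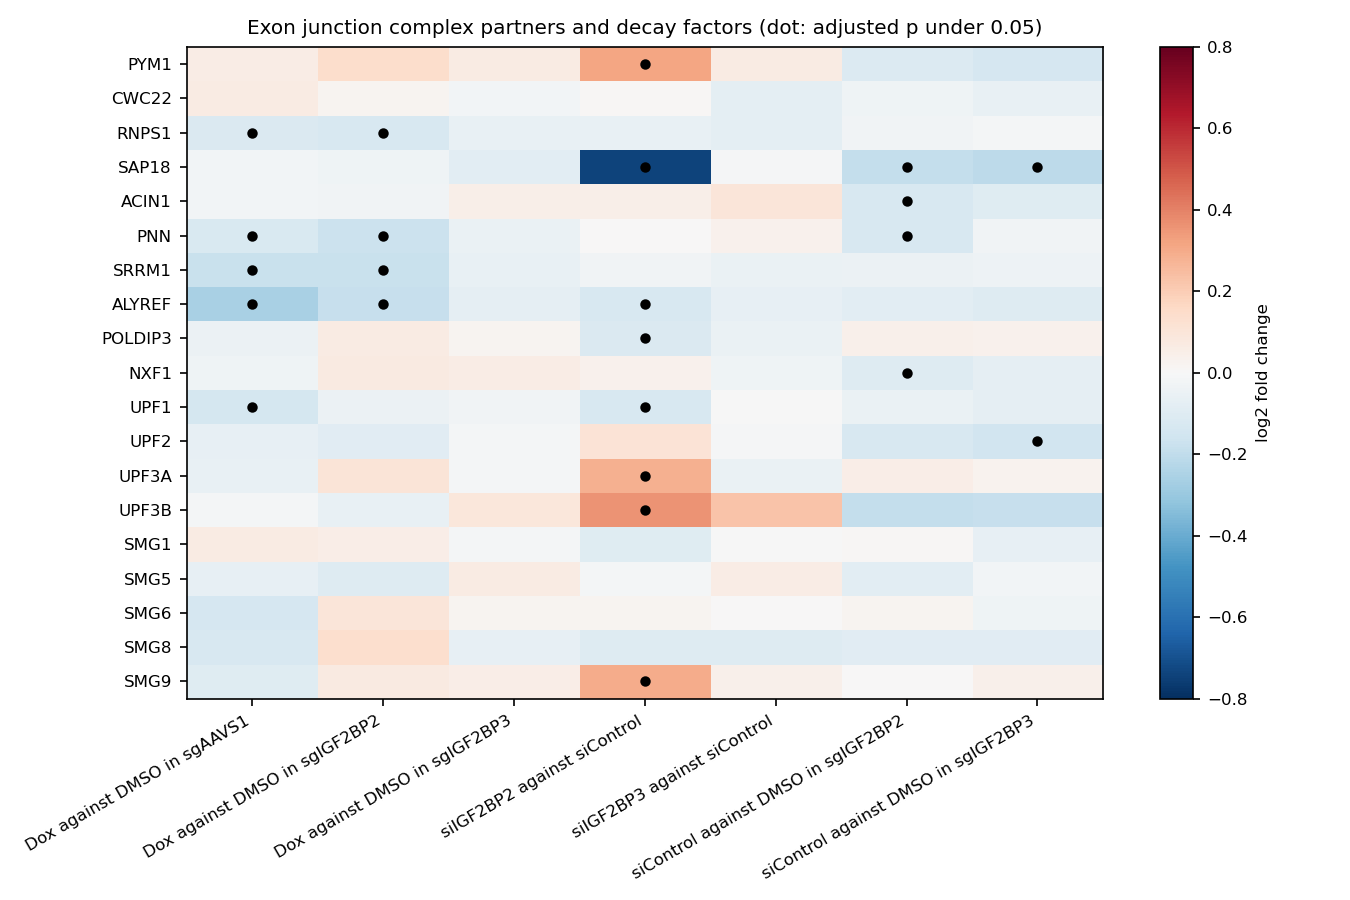
Log2 fold change (colour scale) of 19 of the 20 partner genes (rows) in 7 comparisons (columns), with calls at an edgeR adjusted p under 0.05 marked. SAP18 with siIGF2BP2 (−0.74) is the deepest value. The columns for Dox in sgIGF2BP3 cells and for siIGF2BP3 hold no mark, where 2.64% and 2.34% of all genes were called.

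Transcripts that are reported targets of nonsense-mediated decay are often used to read out that pathway. Of 15 listed, 10 were in the table and tested, and the 5 non-coding host genes (GAS5, SNHG1, SNHG12, SNHG15 and ZFAS1) were not analysed here. Several of the 10, among them CDKN1A, GADD45A and TNFRSF10B, are also known p53 targets. With Dox in sgAAVS1 cells 3 rose and 3 fell, where 15.9% of all genes were called. GADD45B rose by 0.37 (adjusted p = 0.0193 in edgeR, 0.104 without DMSO replicate 1, 0.0516 without DMSO replicate 2 and 0.0569 without Dox replicate 1), and TNFRSF10B by 0.20 (adjusted p = 3.83e-06 in edgeR). TBL2 fell by 0.14 (adjusted p = 0.0267 in edgeR, 0.0601 with no filter on low counts, up to 0.158 on leaving out 1 library) and ATF4 by 0.11 (adjusted p = 0.0360 in edgeR, up to 0.179). Leaving out sgAAVS1 DMSO replicate 1, DMSO replicate 2 or Dox replicate 1 left 3 of the 10 called. In sgIGF2BP2 cells 4 rose and 1 fell, where 20.4% of all genes were called, and the median over the 10 was 0.21 against 0.01 for all genes. GADD45A rose by 0.54 (SE 0.054, adjusted p = 2.21e-12 in edgeR) and CDKN1A by 0.51 (SE 0.033, adjusted p = 1.03e-20 in edgeR), while HNRNPA2B1 fell by 0.22 (adjusted p = 2.22e-08 in edgeR). Compared with sgAAVS1 cells, the Dox effect was called higher for 3 of the 10 and lower for 1, where 6.97% of all genes differed. The Dox effects on GADD45A and CDKN1A were higher than in sgAAVS1 cells by 0.56 and 0.34 (edgeR adjusted p = 3.22e-07 and 3.19e-07), where GADD45A had −0.02 (adjusted p = 0.814). HNRNPA2B1 differed by −0.15 (adjusted p = 0.0199 in edgeR, 0.0560 without sgIGF2BP2 DMSO replicate 3 and 0.0516 without sgAAVS1 DMSO replicate 3).

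In sgIGF2BP3 cells 1 of these 10 rose with Dox (TNFRSF10B, 0.19, adjusted p = 7.47e-05 in edgeR) and 1 fell (UPP1, −0.17, adjusted p = 0.000548 in edgeR), where 2.64% of all genes were called. Between sgIGF2BP3 and sgIGF2BP2 cells 2.91% of all genes differed in their Dox effect. Of the 10 listed, 3 were called lower in sgIGF2BP3 minus sgIGF2BP2 and 0 higher. CDKN1A and GADD45A differed by −0.41 and −0.39 in sgIGF2BP3 minus sgIGF2BP2 (edgeR adjusted p = 2.61e-09 and 0.00114). With siIGF2BP2, 1 of the 10 rose and 1 fell, where 36.8% of all genes were called, so the list was below the background. ATF4 rose by 0.11 (adjusted p = 0.0110 in edgeR, 0.0733 without siIGF2BP2 replicate 3 and 0.0629 without siControl replicate 3) and CDKN1A fell by 0.38 (SE 0.033, adjusted p = 2.51e-15 in edgeR). With siIGF2BP3 0 of 10 were called by edgeR and by DESeq2, and 3 had an unadjusted p under 0.05. Only 2.34% of all genes were called by edgeR there, so 0 of 10 is near the background. CDKN1A differed between the siRNA effects by 0.38 (siIGF2BP3 minus siIGF2BP2, adjusted p = 1.37e-09 in edgeR). It was 1 of 10 called there, where 18.7% of all genes differed. Between siControl and DMSO cultures, 2 rose and 4 fell in each line, where 18.4% (sgIGF2BP2) and 19.4% (sgIGF2BP3) of all genes were called. CDKN1A (0.21 in each) and TNFRSF10B (0.21 in sgIGF2BP2 and 0.20 in sgIGF2BP3) rose in both, with edgeR adjusted p from 8.86e-07 to 1.97e-06. The falls with the greatest size were ATF4 (−0.22, adjusted p = 5.17e-06 in edgeR) and GADD45A (−0.20, adjusted p = 0.00781 in edgeR, and 0.0640 without siControl replicate 1) in sgIGF2BP2 cells. In sgIGF2BP3 cells they were GADD45B (−0.44, adjusted p = 0.00615 in edgeR) and UPP1 (−0.16, adjusted p = 0.000241 in edgeR).

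The genes whose group means ran most like those of MAGOHB were found among 9953 genes whose log2 CPM averaged 2 or more. By Pearson r over the 10 group means of log2 CPM, they were DCK (0.93), RAB2A (0.91), EID1 (0.89), CDKAL1 (0.88) and E2F6 (0.88). The 10 means include the sgIGF2BP3 DMSO and Dox groups that chose MAGOHB. These genes are also the highest of 9953 over only 10 points, so their r values are descriptive and carry no test. Of the other exon junction complex genes, the nearest was MAGOH with 0.63. A few genes set beforehand would nearly always fall short of the highest of 9953, so this gap is no result about the complex.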

How the data were processed

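Poly(A) libraries were made with a directional kit from alkylated, s4U-labelled total RNA and sequenced as single 100-base reads, per the labels' protocols. The authors deposited raw read counts per Ensembl gene for all 40 libraries in 1 table. Per the submitters' processing notes, bcl2fastq 2.20.0.422 and STAR 2.7.5c were used with hg38. The counting tool, its annotation and its use of strand are not given in the sources used here. Gene names, positions and sequences came from GENCODE 29 (19847 of 19962 identifiers matched).

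Counts were fitted as deposited with edgeR 4.0.16 (R 4.3.3): TMM normalization, filterByExpr by group, quasi-likelihood fit over all 40 libraries with 1 coefficient per group, and Benjamini-Hochberg adjustment over 11428 genes. Calls are at an adjusted p under 0.05. Standard errors are the log2 fold change divided by the root of F. CPM used TMM library sizes, and log2 CPM a prior count of 2. The script recovered known changes in simulated data. DESeq2 1.42.0, other scalings and filters, and fits without single libraries were alternatives.

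The members and the gene lists were chosen with earlier results of these data known. Named genes are the members, up to 2 called rises and 2 called falls of each list per comparison, and the 5 genes most like MAGOHB. SPOP was named after its value was known. Single values of 1 partner gene, and of 1 gene that overlaps a member, are not reported here; the partner gene is kept in the counts of its list.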

Additional observations from a re-analysis of the deposited data

Results flagged for a closer look

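In siIGF2BP3-treated sgIGF2BP3 cells, replicate 3 held MAGOHB at 13.9 CPM, apart from the other 3 libraries at 15.1 to 15.3 CPM. In sgAAVS1 cells with Dox, replicate 3 held CASC3 at 105.9 CPM, apart from the other 3 at 99.9 to 100.8 CPM. Each gap to the nearest library was a larger part of the group's range than Dixon's test allows at the 95% level for 4 samples. Of 50 sets of 4 libraries examined (5 genes in 10 groups), 2 stood out in this way, and chance gives about 1 in 20. The Dox effect on EIF4A3 differed between sgIGF2BP2 and sgAAVS1 cells by 0.19 on the log2 scale (edgeR adjusted p = 0.00818). It ranged from 0.17 to 0.21 on leaving out single libraries, and the 122 genes within 5 Mb had a median difference of 0.22.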

How the results depend on the processing

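With MAGOH and MAGOHB added into 1 row, the MAGOHB log2 fold changes became −0.15 (Dox in sgIGF2BP3), −0.19 (Dox in sgIGF2BP2, edgeR adjusted p = 0.00319), −0.16 (siControl against DMSO in sgIGF2BP2, adjusted p = 0.0120), −0.0051 (Dox in sgAAVS1) and −0.0049 (siIGF2BP2), the last 2 with the sign turned. The differences of Dox effects became −0.15 (sgIGF2BP3 minus sgAAVS1, for either gene) and 0.04 (sgIGF2BP3 minus sgIGF2BP2). These values follow from the sum, of which MAGOH is the greater part. With only the groups of each comparison in the fit, the genes called were 477 for Dox in sgIGF2BP3 (302 over all libraries) and 465 for siIGF2BP3 (267). In that fit the decay list had 4 calls for Dox in sgIGF2BP3 (2 over all libraries, 4 with DESeq2), and the partner list 5 for siControl against DMSO in sgIGF2BP3 (2 over all libraries). Within 2 Mb the neighbours of EIF4A3 had a median of −0.24. The cause of these shifts was not tested. Leaving out 1 library gave 108 to 285 genes called for Dox in sgIGF2BP3 (108, 151, 162 and 172 without Dox replicate 4, DMSO replicate 4, DMSO replicate 3 and Dox replicate 2) and 428 to 1415 for the difference sgIGF2BP3 minus sgAAVS1 (428, 540 and 1415 without sgIGF2BP3 Dox replicate 4, sgAAVS1 DMSO replicate 2 and sgAAVS1 DMSO replicate 4). It gave 0 to 3 members called for Dox in sgIGF2BP2 and 1 to 2 for siIGF2BP2. These member counts, and the list counts below, stand without the share of all genes called in the same fits. MAGOHB with Dox in sgIGF2BP2 ran from −0.27 to −0.089. Partner calls ran from 3 to 6 (Dox in sgIGF2BP2), 1 to 5 and 1 to 3 (siControl against DMSO in sgIGF2BP2 and sgIGF2BP3), and decay list calls from 3 to 6 (Dox in sgAAVS1) and 1 to 2 (siIGF2BP2). Values near 0 that were not called changed sign for MAGOH (Dox in sgAAVS1 −0.051 to 0.0045, siIGF2BP2 −0.068 to 0.011, siIGF2BP3 −0.070 to 0.0061, difference of siRNA effects −0.048 to 0.038), CASC3 (siControl against DMSO in sgIGF2BP3 −0.027 to 0.028) and EIF4A3 (difference of siRNA effects −0.0079 to 0.053). Same-numbered libraries deviated together little or not at all (28 pairs, r from −0.090 to 0.092), so the numbers were not used as pairs. Of the 28, 8 correlated best with their own number. Among these were every pair of siControl against DMSO in sgIGF2BP2 (r from 0.044 to 0.092) and pairs 1 and 4 of siControl against DMSO in sgIGF2BP3 (0.080 and 0.044). With the replicate number as a block, no call of a member or named gene changed, EIF4A3 with Dox in sgAAVS1 had −0.23, and the genes called went from 302 to 342 for Dox in sgIGF2BP3 and from 1820 to 1913 for Dox in sgAAVS1. For MAGOHB, counts of 155 to 499 per library limit the precision.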
